A study of Mus musculus with 12 samples.

Results

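Phospholipid remodelling and cholesterol efflux were followed through 10 genes chosen by name, with earlier results of these data known. They were the phospholipid acyltransferases *Lpcat1*, *Lpcat2* and *Lpcat3*, the transporters *Abca1*, *Abca9* and *Abcg1*, the lipid storage genes *Plin2* and *Soat1*, and the liver X receptor genes *Nr1h2* and *Nr1h3*. Each had 1 row among the 47643 genes of the count table, and 9 of the 10 were among the 11103 genes tested, which had at least 15 counts in all over 10 samples. *Nr1h3*, with 9 counts, was not tested.

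The samples were viable cells sorted from the brains of 5 old males of the p16-3MR line on a C57BL/6 background, aged 113, 115, 116, 116 and 116 weeks (mice 1 to 5). All mice carried the 3MR transgene, in which the p16 promoter drives a luciferase, a monomeric red fluorescent protein (RFP) and a truncated viral thymidine kinase, and the labels name no treatment. Each mouse gave 1 sample of cells with low fluorescence (RFPneg, called RFPLow in the paper) and 1 with high fluorescence (RFPpos, RFPHigh in the paper), sorted on viability and RFP and on no cell type marker. The question was how sorted cells with high activity of the p16 reporter differ from the remaining brain cells of the same animals. Bulk 3′ libraries, which read a tag near the end of each transcript, gave between 177287 and 415834 counts on genes in the RFPneg samples (median 248471) and between 222560 and 289713 in the RFPpos samples (median 242798). Levels are in CPM, in which every sample is scaled to one total over its genes, so that 1 count was worth between 2.40 and 5.64 CPM and weakly expressed genes rested on few counts.

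Lysophosphatidylcholine acyltransferases put a fatty acid back on a lysophospholipid and so remodel the acyl chains of membrane lipids. ABC transporters carry cholesterol and phospholipid out of the cell to apolipoproteins and lipoprotein particles, and sterol that is not exported can be esterified by Soat1 and kept in droplets coated by Plin2. Liver X receptors sense oxysterols and activate genes of efflux and acyl chain remodelling, *Abca1*, *Abcg1* and *Lpcat3* among them, a programme well known in macrophages and microglia that take up myelin debris.

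Shares of many cell type marker lists, though not of all, differed between the groups and accompany every comparison below. The summed share of 20 microglia genes in the counts was 2.34, 1.56, 1.67, 1.53 and 2.17% in the RFPneg samples of mice 1 to 5 and 4.49, 3.91, 4.10, 3.96 and 3.44% in their RFPpos samples. The groups did not overlap, and microglia genes, with *Ctss* the most abundant, were present in every sample of both. Of the 20 genes 20 were called higher in RFPpos, where all genes tested gave 5.2%. Their log2 fold changes ran from 0.74 to 1.79 with a median of 1.30. The share of 10 endothelial genes went the other way, from 0.155, 0.512, 0.527, 0.683 and 0.408% in RFPneg to 0.0103, 0.0138, 0.0184, 0.0315 and 0.0194% in RFPpos, with *Flt1* the most abundant and *Emcn* at 0 in RFPpos. In an exact permutation test within mice, 2 of 32 assignments were as extreme for either list (two-sided p = 0.0625, the smallest that 5 pairs allow).

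Among the other lists, mean shares fell in RFPpos in 5 of 5 mice for 5 neutrophil genes (0.379 to 0.00692%, *S100a8* most abundant), 7 oligodendrocyte genes (0.171 to 0.0230%, *Mbp*), 4 choroid plexus and ependyma genes (0.233 to 0.0594%, *Ttr*), 6 mural genes (0.0386 to 0.00662%, *Vtn*), 5 monocyte genes (0.0289 to 0.00118%, *Ccr2*), 5 fibroblast genes (0.0161 to 0.00533%, *Dcn*) and 5 lymphocyte genes (0.00475 to 0.000252%, *Nkg7*). For each of them the exact permutation test within mice gave p = 0.0625. The 3 oligodendrocyte progenitor genes had 59 counts in RFPneg and 0 in RFPpos, where 0 allows up to 3 counts in a sample, 0.00104 to 0.00135% of its counts. Shares of 5 neuronal genes were 0.0153 and 0.00675% (*Map1b*; exact permutation p = 0.125). Astrocyte genes (8 genes, *Slc1a2* most abundant) held 0.421% ± 0.0734 (SD, n = 5) in RFPneg and 0.377% ± 0.188 (SD, n = 5) in RFPpos, lowest at 0.0957% in the RFPpos sample of mouse 1 (higher in RFPpos in 3 of 5 mice, exact permutation p = 0.688). Of the 8 genes 2 were called lower, where all genes tested gave 8.2%. Among them was *Slc1a2* (log2 fold change −0.66, adjusted p = 0.00886, edgeR, higher in 0 of 5 mice). CNS-associated macrophage genes (7 genes, *Mrc1* most abundant) held 0.0190 and 0.0192% (exact permutation p = 1). Their share was lower in RFPpos in 4 of 5 mice and rose in mouse 2, from 0.0184 to 0.0311%, and the log2 fold changes of the 6 tested genes ran from −1.43 to 1.52. In bulk samples such as these, fewer cells of a type and less RNA per cell cannot be told apart, and the part of cell makeup in the fold changes below was not tested except by a second scaling, to the summed counts of the microglia list.

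Of the 9 members tested, 5 were called higher in RFPpos (*Lpcat1*, *Lpcat2*, *Abca1*, *Abca9* and *Abcg1*) at a Benjamini-Hochberg adjusted p under 0.05 from edgeR's quasi-likelihood test, whereas 5.2% of all genes tested were called higher. None was called lower, against 8.2% of all genes tested, and none was lower at an unadjusted p under 0.05 with edgeR's quasi-likelihood or likelihood ratio test, DESeq2 or limma with voom weights. The median log2 fold change was 0.91 over the 9 members and −0.10 over all 11103 genes. Because the members were chosen with earlier results of these data known, these comparisons do not test them as a set. The RFPneg and RFPpos ranges did not overlap, with RFPpos higher, in 3 of the 9 members (*Lpcat1*, *Lpcat2* and *Abca1*) and in 3.49% of all genes tested. Scaling to the microglia list moved the median of all genes by −1.20 and left 13 genes higher and 5801 lower, in place of 577 and 911. By that scale 1 member, *Lpcat1*, was higher (0.117% of all genes) and 2, *Plin2* and *Soat1*, were lower (52.2% of all genes).

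The acyltransferases come first. *Lpcat1* (ENSMUSG00000021608; GRCm38 chromosome 13, 73467197 to 73516422, plus strand) makes saturated phosphatidylcholine and is best known from lung surfactant. Its level was 147, 61.2, 62.5, 84.5 and 76.7 CPM in the RFPneg samples of mice 1 to 5 and 315, 283, 242, 212 and 334 CPM in the RFPpos samples. Every RFPpos sample lay above every RFPneg sample, and among the latter mouse 1 was the highest. The counts behind these values ran from 12 to 26 in RFPneg and from 53 to 82 in RFPpos. Means were 86.3 ± 35.1 and 277 ± 50.4 CPM (mean and SD, n = 5). Fold changes here and below come from the paired fit with TMM scaling (trimmed mean of M values) and so are not the ratio of the CPM means. For *Lpcat1* the fit gave a 3.55-fold rise, 1.83 on the log2 scale with a standard error (SE) of 0.25 (adjusted p = 9.61e-11, edgeR). The fold change of *Lpcat1* exceeded the highest of the 20 microglia genes, 1.79 for *Laptm5*, by less than its SE.

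Relative to the microglia list, *Lpcat1* had 6.28, 3.93, 3.75, 5.54 and 3.54 counts per 1000 microglia counts in RFPneg and 7.01, 7.23, 5.90, 5.35 and 9.71 in RFPpos. It was higher in RFPpos in 4 of 5 mice, with mouse 4 nearly level and the ranges overlapping. Its log2 fold change on this scale was 0.62 (SE 0.28; adjusted p = 0.0493, edgeR), and it was the last of the 13 genes called higher in order of p. Of those 13, *Laptm5* and *Fcrls* belong to the scaling list itself, and *Ctsz*, *Ubash3b* and *Mgat4a* were called too (genes named after their values were seen).

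*Lpcat2* (ENSMUSG00000033192; chromosome 8, 92855339 to 92919279, plus strand) acts on lysophosphatidylcholine and also makes platelet-activating factor in inflammatory cells. It stood at 259, 194, 209, 193 and 200.2 CPM in RFPneg and at 517, 338, 318, 411 and 297 CPM in RFPpos. The groups did not overlap, and mouse 1 was the highest in both. The mean rose from 211 ± 27.8 to 376 ± 89.6 CPM (mean and SD, n = 5). The fitted log2 fold change was 0.91 (SE 0.22; adjusted p = 0.000520, edgeR), which turned to −0.31 (adjusted p = 0.25) under microglia scaling. Per 1000 microglia counts *Lpcat2* was higher in RFPpos in 1 of 5 mice.

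*Lpcat3* (ENSMUSG00000004270; chromosome 6, 124663027 to 124704418, plus strand) prefers polyunsaturated acyl chains and is a known liver X receptor target. Levels were 95.9, 96.9, 79.4, 133 and 117 CPM in RFPneg and 148, 183, 98.6, 204 and 128 CPM in RFPpos. RFPpos was higher in 5 of 5 mice, but the groups overlapped, with mouse 4 high and mouse 3 low in both. The log2 fold change was 0.62 (95% interval 0.09 to 1.14, not adjusted for the number of genes) and was not called (unadjusted p = 0.0211, adjusted p = 0.118, edgeR). With microglia scaling it was −0.60 (adjusted p = 0.0651), and RFPpos was higher in 0 of 5 mice. *Lpcat3* overlaps *Emg1*, with 105 counts, on the opposite strand, and whether the counting used strand is not given in the sources used here.

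Among the transporters, *Abca1* (ENSMUSG00000015243; chromosome 4, 53030787 to 53159895, minus strand) loads cholesterol and phospholipid onto lipid-poor apolipoproteins. It had 203, 209, 190.0, 92.6 and 130.1 CPM in RFPneg and 306, 345, 265, 263 and 239 CPM in RFPpos. The lowest RFPpos sample lay above the highest RFPneg sample, and mice 4 and 5 were the lowest in RFPneg. The mean rose from 165 ± 51.2 to 284 ± 42.0 CPM (mean and SD, n = 5), with a fitted log2 fold change of 0.92 (SE 0.23; adjusted p = 0.00113, edgeR). It was −0.30 (adjusted p = 0.287, edgeR) under microglia scaling. The call held in 13 of 15 alternative settings. It was also lost with the reads on no gene added to the library sizes (0.66, adjusted p = 0.0543, edgeR).

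*Abca9* (ENSMUSG00000041797; chromosome 11, 110100749 to 110168196, minus strand) belongs to a cluster of ABCA genes whose transported lipids are less well defined. It had 231, 66.3, 103, 101 and 107 CPM in RFPneg and 332, 407, 291, 192 and 367 CPM in RFPpos. The RFPneg sample of mouse 1 lay above the RFPpos sample of mouse 4, and these were the only samples out of order. The mean rose from 122 ± 63.4 to 318 ± 82.5 CPM (mean and SD, n = 5), higher in 5 of 5 mice, with a fitted log2 fold change of 1.54 (SE 0.24; adjusted p = 2.07e-08, edgeR). Under microglia scaling the log2 fold change was 0.33 and no longer called (95% interval −0.19 to 0.84, adjusted p = 0.278).

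*Abcg1* (ENSMUSG00000024030, chromosome 17, 31057675 to 31117988, plus strand) passes cholesterol to particles that already hold lipid. It was the only member called different among mice in the F test given below. Its counts were 22, 38, 29, 9 and 2 in RFPneg and 51, 51, 43, 19 and 7 in RFPpos, or 124, 194, 69.7, 36.2 and 6.67 CPM and 229, 176, 193, 75.9 and 28.8 CPM. Mice 4 and 5 were low in both of their samples, mice 1 and 2 and the RFPpos sample of mouse 3 were high, and the groups overlapped widely. RFPpos was higher in 4 of 5 mice, mouse 2 being the exception. With the mouse as a block the log2 fold change was 0.97 (SE 0.30; adjusted p = 0.0142, edgeR), whereas without the block it was 0.90 and not called (adjusted p = 0.187). The call held in 9 of 15 alternative settings and was also lost with DESeq2 (0.95, adjusted p = 0.160), with the reads on no gene added to the library sizes (adjusted p = 0.115), without mouse 1 (adjusted p = 0.0726) and without mouse 3 (adjusted p = 0.180), and the sign turned under microglia scaling (−0.29, adjusted p = 0.450). Over all alternatives the adjusted p ran from 1.60e-10 to 0.0493 for *Lpcat1*, from 0.000354 to 0.25 for *Lpcat2*, from 0.00171 to 0.287 for *Abca1*, from 3.40e-09 to 0.278 for *Abca9* and from 0.00983 to 0.450 for *Abcg1*. The highest value of each came with microglia scaling.

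The difference among mice was itself tested for every gene, with an F test of the mouse block that was added after these values were seen. It called 77 of 11103 genes (0.694%), and of the 9 members it called *Abcg1* alone (F = 13.8, adjusted p = 3.87e-07, edgeR). *Abcg1* had the fifth smallest p of all genes, after *Gh*, *Camk2a*, *Npy* and *Fabp7*, a pituitary hormone gene and genes of neurons and glia. None of the 20 microglia genes was called among mice with edgeR's quasi-likelihood or likelihood ratio test, although 6 had an unadjusted p under 0.05. The quasi-likelihood test called 6 of 10 endothelial (5 with the likelihood ratio test), 3 of 5 neutrophil, 2 of 7 oligodendrocyte, 1 of 8 astrocyte and 1 of 2 choroid plexus and ependyma genes. In these lists, in the same order, 8, 5, 4, 7 and 1 genes had an unadjusted p under 0.05. In the other 7 lists 0 of 28 genes were called with either test, and 1 had an unadjusted p under 0.05. With the stricter filterByExpr filter, which left 4210 genes and 1 gene called, *Abcg1* came second with an adjusted p of 0.0538. Among the wider lists described below, *Pla2g7* and *Gramd1b* were the genes called different among mice. The cause of the difference was not tested.

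**Figure D1:**
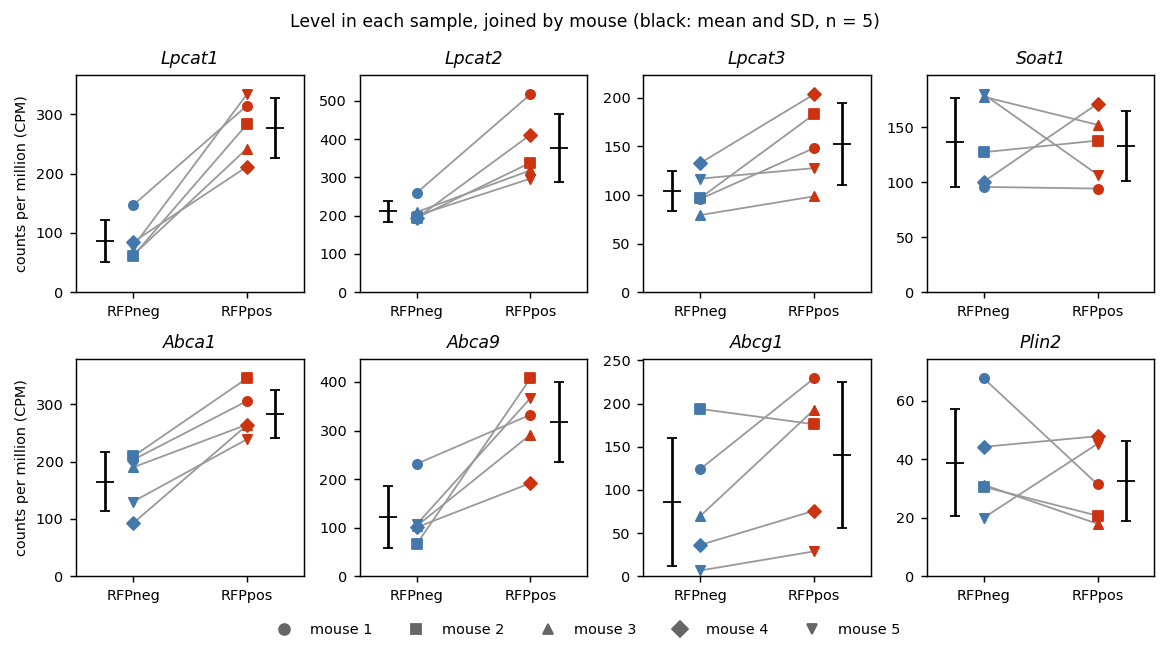
Level (CPM, vertical axes from 0) of 8 member genes in the RFPneg (blue) and RFPpos (red) sample of each of 5 mice, with lines joining the samples of a mouse and black bars giving mean and SD. *Lpcat1*, *Lpcat2* and *Abca1* did not overlap between groups, *Abcg1* was low in both samples of mice 4 and 5, and *Soat1* and *Plin2* had no common direction. The order of the groups is that of the CPM scale. Scaled to the microglia list, fitted log2 fold changes were −0.31 for *Lpcat2*, −0.30 for *Abca1* and −0.29 for *Abcg1*. None of these was called (adjusted p = 0.25, 0.287 and 0.450, edgeR), so a turn in the order was not shown. *Lpcat1* and *Abca9* stayed above 0. That scale shifted genes together, by −1.20 at the median on the log2 scale.

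**Figure D2:**
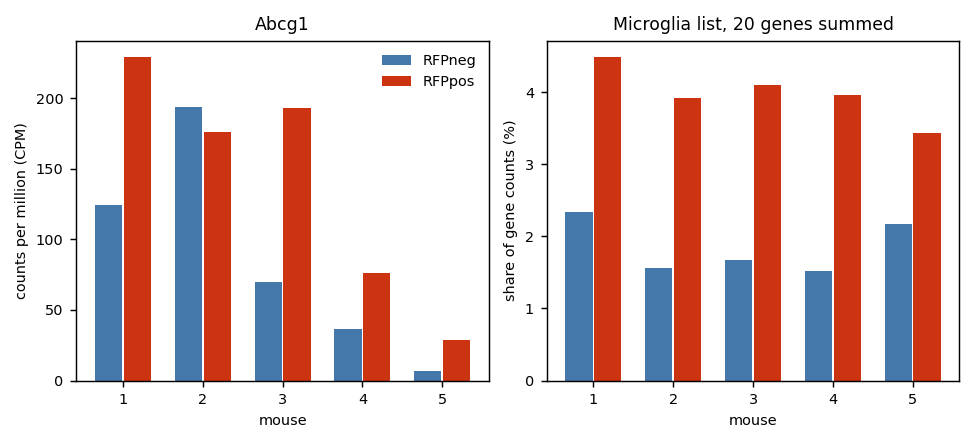
Left, *Abcg1* (CPM) and right, the summed share of 20 microglia genes (percent of gene counts) by mouse in RFPneg (blue) and RFPpos (red), 1 sample a bar. In RFPneg *Abcg1* ran from 6.67 to 194 CPM and the microglia share from 1.53 to 2.34%. In RFPpos they ran from 28.8 to 229 CPM and from 3.44 to 4.49%. The cause of the difference among mice was not tested.

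The storage genes did not pass the test. *Soat1* (ENSMUSG00000026600; chromosome 1, 156424525 to 156474331, minus strand), which esterifies cholesterol, had 95.9, 127, 178, 101 and 180.2 CPM in RFPneg and 94.4, 138, 152, 172 and 107 CPM in RFPpos. The groups covered the same range, and RFPpos was higher in mice 2 and 4 only. A log2 fold change of 0.06 was fitted (95% interval −0.45 to 0.58; adjusted p = 0.934, edgeR), so that a rise or fall of more than about 1.5-fold lay outside the interval. Relative to the microglia list it was −1.16 (SE 0.28; adjusted p = 0.000272, edgeR), lower in 5 of 5 mice. The median of all genes tested was −1.30 on that scale, and 52.2% of them were called lower.

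*Plin2* (ENSMUSG00000028494; chromosome 4, 86648386 to 86670060, minus strand) ran from 20.02 to 67.7 CPM in RFPneg and from 17.9 to 47.9 CPM in RFPpos, on 4 to 13 counts a sample. Its log2 fold change was −0.11 (95% interval −1.07 to 0.85; adjusted p = 0.940, edgeR), and the depth did not allow a 1.5-fold difference to be seen. Under microglia scaling it was −1.32 (95% interval −2.30 to −0.34; adjusted p = 0.0202, edgeR), where the median of all genes tested was −1.30.

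The receptor genes were close to the limit of detection. *Nr1h2* (ENSMUSG00000060601; chromosome 7, 44549616 to 44553951, minus strand) had 1, 0, 2, 3 and 8 counts in RFPneg and 0, 1, 2, 2 and 0 in RFPpos. Its log2 fold change was −0.89 with a 95% interval from −3.34 to 1.56 (adjusted p = 0.768, edgeR), so that no direction could be read. *Nr1h3* (ENSMUSG00000002108; chromosome 2, 91184061 to 91202834, minus strand) had 7 counts in RFPneg, spread over 4 mice, and 2 in RFPpos, both in mouse 5. At this depth the receptors of the pathway could not be compared, in contrast to their known targets *Abca1* and *Abcg1*, which had 569 and 271 counts in all.

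**Figure D3:**
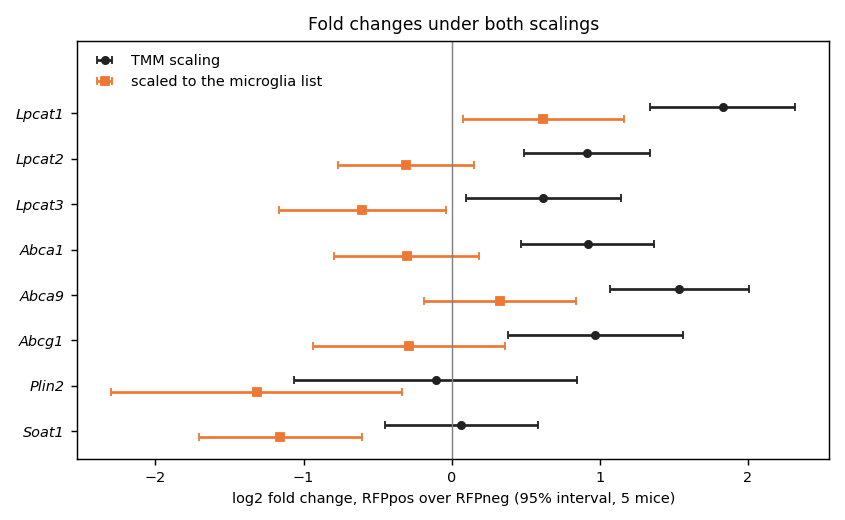
Log2 fold change of RFPpos over RFPneg for 8 members with its 95% interval (not adjusted for the number of genes) under TMM scaling (black circles) and with library sizes taken from the microglia list (orange squares), 5 mice. All 8 values are lower on the microglia scale, where *Lpcat1* and *Abca9* stay above 0, *Lpcat2*, *Lpcat3*, *Abca1* and *Abcg1* turn below 0, and *Plin2* and *Soat1* lie near −1.3 and −1.2.

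The 4 members that were called and, in CPM, were higher in 5 of 5 mice are shown with a promoter stretch. Each holds the 250 bases before the RefSeq transcription start (GRCm38.p6), read 5′ to 3′ on the strand of the gene. The gene coordinates given above come from GENCODE and place some starts elsewhere. By them the last bases of the *Lpcat1* and *Abca9* stretches lie inside the gene, the marked CCGCCC and GAGGAA among them. Of the 10 members 9 had an entry, all but *Abcg1*. Capitals mark letters searched on both strands.
Lpcat1 (chr13:73466981-73467230, plus): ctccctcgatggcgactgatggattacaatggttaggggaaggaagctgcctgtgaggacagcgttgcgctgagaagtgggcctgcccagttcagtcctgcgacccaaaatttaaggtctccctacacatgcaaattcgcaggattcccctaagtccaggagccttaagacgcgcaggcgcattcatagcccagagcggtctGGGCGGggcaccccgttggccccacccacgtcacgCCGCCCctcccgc
Lpcat2 (chr8:92855083-92855332, plus): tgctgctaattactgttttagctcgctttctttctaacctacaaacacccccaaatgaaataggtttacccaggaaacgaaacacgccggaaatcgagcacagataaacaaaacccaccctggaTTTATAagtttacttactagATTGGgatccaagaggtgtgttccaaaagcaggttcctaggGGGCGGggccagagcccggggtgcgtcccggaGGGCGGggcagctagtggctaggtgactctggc
Abca1 (chr4:53159896-53160145, minus): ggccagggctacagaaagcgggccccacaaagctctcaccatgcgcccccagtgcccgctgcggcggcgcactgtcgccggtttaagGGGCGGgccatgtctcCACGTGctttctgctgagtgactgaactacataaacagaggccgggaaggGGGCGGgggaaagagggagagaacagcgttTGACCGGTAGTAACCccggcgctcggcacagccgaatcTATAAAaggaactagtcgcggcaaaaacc
Abca9 (chr11:110168154-110168403, minus): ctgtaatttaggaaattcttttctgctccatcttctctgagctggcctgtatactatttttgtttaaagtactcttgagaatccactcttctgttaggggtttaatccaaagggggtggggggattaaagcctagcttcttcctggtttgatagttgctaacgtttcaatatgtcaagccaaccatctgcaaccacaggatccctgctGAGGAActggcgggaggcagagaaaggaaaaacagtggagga

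The longest capital run, in *Abca1*, matches TGACCGNNNNTAACC, the imperfect repeat known as the liver X receptor element of this promoter. The letters searched were those of that known element, so the match in *Abca1* was given in advance. Of 32851 promoter stretches of the same length, 4 held these letters (0.0122%). The exact repeat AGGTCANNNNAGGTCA was in 5 of the 32851 stretches (0.0152%) and in none of the 9 members with an entry. The single element AGGTCA was in 14.0% of the stretches and, of those members, in *Plin2*. *Abca1* also held the E box CACGTG (6.02% of promoters), a TATAAA run (12.4%, also in *Lpcat2*) and the GC box GGGCGG (32.7%), which *Lpcat1*, *Lpcat2* and *Lpcat3* shared. *Abca9* held none of these but the ETS-type letters GAGGAA (23.3%), also found in *Lpcat3*, and *Lpcat2* held CCAAT (33.9%), as did *Lpcat3*, *Plin2* and *Soat1*. The stretches of *Lpcat1* and *Abca1* were 60.8 and 61.6% G and C, that of *Lpcat2* 51.2% and that of *Abca9* 44.4%, against a median of 52.4% over all. No set of these letters was common to the 4 genes, and a match describes the sequence only.

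By their pattern over the 10 samples, each member with a mean of at least 40 CPM was set beside the 4261 genes at that level. *Lpcat1* was most like *Zfhx3*, *Mgat4a* and *Cltc* (Pearson r 0.991, 0.988 and 0.985 of log2 CPM), and *Lpcat2* was most like *Cyfip1*, *Nfatc2* and *Alox5ap* (0.978, 0.976 and 0.966), the last being the protein that hands arachidonic acid to 5-lipoxygenase. *Abca1* went with *C5ar2*, *Slc9a9* and *Hps3* (0.957, 0.956 and 0.955) and *Abca9* with *Ptprc*, *Dock10* and *Lpcat1* (0.967, 0.965 and 0.965). Every gene in these 4 sets was itself called higher in RFPpos, so that the difference between the sorted populations enters the likeness.

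*Abcg1* was different, with *Kdelr1*, *Arl6ip1* and *Inpp4b* most alike (0.939, 0.922 and 0.906), none of which was called between the populations. *Lpcat3* was most like *Asap1*, *Nr3c1* and *Pbrm1* (0.907, 0.903 and 0.891) and *Soat1* like *Trmt112*, *Cyb5r1* and *Emc3* (0.886, 0.845 and 0.833), and none of these 6 was called either. The values describe these 10 samples, which share depth and mice in pairs, and carry no test.

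The rest of the pathway was read from 127 further genes in 6 role groups. Of these 102 were tested, 10 were called higher and 13 lower in RFPpos (9.80% and 12.7%, where all genes gave 5.2% and 8.2%), and the median log2 fold change was −0.06. Scaled to the microglia list, 0 were higher with edgeR, also at an unadjusted p under 0.05, and 63 of 102 lower, where all genes gave 0.117% and 52.2%. The 10 higher calls were sensitive to the setting, with 7, 5, 7, 4 and 6 when mouse 1, 2, 3, 4 or 5 was left out.

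Acyltransferases and phospholipases split, with 2 of 21 tested genes higher and 5 lower (9.52% and 23.8%, where all genes gave 5.2% and 8.2%). The lysosomal phospholipase *Pla2g15* rose from 87.1 ± 17.8 to 210.0 ± 22.4 CPM (SD, n = 5; log2 fold change 1.39, adjusted p = 4.25e-06, edgeR). *Acsl4*, which activates arachidonic acid, showed a log2 fold change of 1.04 (adjusted p = 0.0212), higher in 4 of 5 mice. *Pla2g16*, *Acsl6* and *Acsl3* fell by 1.12, 1.41 and 0.82 on the log2 scale, the last being higher in RFPpos in 1 of 5 mice. The call of *Acsl4* held in 7 of 15 alternative settings, and was lost without mouse 1, 4 or 5 (adjusted p = 0.112, 0.164 and 0.122). *Acsl3* was at its lowest in the RFPpos sample of mouse 1, where astrocyte genes were also lowest, and without mouse 1 its value was −0.46 (adjusted p = 0.196). Its call held in 11 of 15 settings, and was also lost without mouse 2 (adjusted p = 0.0792), with DESeq2 (0.0590) and without the mouse block (0.126). Under microglia scaling *Pla2g15* (0.17) and *Acsl4* (−0.15) were not called.

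Among the other ABC transporters of the A and G subfamilies no rise was called. Of 10 such genes 5 were tested, and 0 were called higher and 2 lower (0% and 40%, where all genes gave 5.2% and 8.2%). At an unadjusted p under 0.05, 0 were higher with edgeR, DESeq2 or limma. The 95% intervals of 2 of these 5 reached 1.57 and 1.44 on the log2 scale, so that a rise of more than 2-fold could have been missed. *Abcg2*, a transporter of the blood-brain barrier, had 255 ± 157 CPM in RFPneg and 68.3 ± 22.7 CPM in RFPpos (SD, n = 5; log2 fold change −1.71, adjusted p = 4.46e-08, edgeR), beside the fall of the endothelial list. *Abca2*, abundant in oligodendrocytes, fell by 1.49 (adjusted p = 0.000165), beside the fall of the oligodendrocyte list. Both were lower in RFPpos in 5 of 5 mice, and the part of cell makeup was not tested.

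Lipoprotein and lysosomal genes gave the widest spread, with 4 of 19 higher and 2 lower (21.1% and 10.5%, where all genes gave 5.2% and 8.2%). *Lrp1*, the endocytic receptor for apolipoprotein E particles, rose from 246 ± 46.8 to 500.0 ± 64.6 CPM (SD, n = 5; log2 fold change 1.14, adjusted p = 2.95e-06, edgeR). *Npc2*, which takes cholesterol out of lysosomal lipoprotein remnants, showed a log2 fold change of 0.86 (adjusted p = 0.000645), and the lysosomal membrane protein *Scarb2* had 0.73 (adjusted p = 0.0112), both higher in 5 of 5 mice. On the microglia scale all 3 were below 0 (−0.08, −0.36 and −0.49) and not called. Per 1000 microglia counts *Npc2* and *Scarb2* were higher in RFPpos in 0 of 5 mice, and the 95% interval of *Scarb2* ran from −0.96 to −0.03. The call of *Scarb2* held in 8 of 15 alternative settings, that of *Npc2* in 13.

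In the other direction *Pltp*, the phospholipid transfer protein, had 231, 459, 404, 567 and 450.5 CPM in RFPneg and 0, 31.1, 62.8, 39.9 and 20.6 CPM in RFPpos. The groups were far apart, and the RFPpos sample of mouse 1 had no count. The log2 fold change was −3.74 (SE 0.29; adjusted p = 1.04e-29, edgeR), the lowest of the 102 genes. *Vldlr* had 38 counts in RFPneg and 4 in RFPpos, all in mouse 2. *Apoe*, the main lipid carrier made in the brain, had 1898 and 1885 counts and a log2 fold change of 0.07 (adjusted p = 0.893). Under microglia scaling it turned to −1.16 (adjusted p = 5.68e-07, edgeR), where the median of all genes tested was −1.30. Per 1000 microglia counts RFPpos was higher in 0 of 5 mice.

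Oxysterol enzymes and the partners and targets of the liver X receptors gave 3 of 23 higher and 3 lower, where all genes gave 5.2% and 8.2%. *Arl4c*, a target with a part in cholesterol transport, rose by a log2 fold change of 1.40 (adjusted p = 3.50e-06, edgeR), and *Mylip*, the ligase that degrades the LDL receptor, by 0.84 (adjusted p = 0.00314). *Rxra*, the partner with which liver X receptors bind DNA, had 17 counts in RFPneg and 47 in RFPpos (log2 fold change 1.71, adjusted p = 0.0421) and was called in 4 of 14 alternative settings. *Smpdl3a* and *Elovl5* fell by 1.25 and 0.66 on the log2 scale, lower in 5 of 5 mice, and *Scd2* was called at −0.68 but was higher in RFPpos in 2 of 5 mice and stood at −0.21 without mouse 1. The call of *Elovl5* held in 11 of 15 alternative settings, and was lost without mouse 1 or 2 (adjusted p = 0.0919 and 0.192), with DESeq2 (0.0533) and without the mouse block (0.0827). That of *Scd2* held in 9 of 15, and was lost without mouse 1 or 2 (0.664 and 0.234), with filterByExpr (0.115), DESeq2 (0.549) and limma (0.0576) and without the mouse block (0.105). *Mylip* was called in 10 of 15, and not without mouse 2 or 4 (adjusted p = 0.103 and 0.0520), with DESeq2 (0.0778), with the reads on no gene (0.103) or under microglia scaling (0.195). Known targets were called in both directions, and whether either count exceeds the share among all genes was not tested. Scaled to the microglia list *Arl4c* was at 0.18 and not called. Of the 23 genes 0 were then called higher with edgeR and 12 lower, where all genes gave 0.117% and 52.2%.

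In sterol synthesis 1 of 21 genes tested was higher (*Ebp*, log2 fold change 1.26, adjusted p = 0.0494, edgeR, called in 1 of 14 alternative settings) and 1 lower (*Msmo1*, −0.75, adjusted p = 0.0167, higher in 1 of 5 mice), 4.76% each way, where all genes gave 5.2% and 8.2%. *Msmo1* was called in 10 of 15 settings, and not without mouse 1, 2 or 3 (adjusted p = 0.111, 0.194 and 0.0674), with DESeq2 (0.0939) or without the mouse block (0.0622). Of the 13 droplet and ester genes tested, none was called in either direction with edgeR, DESeq2 or limma, and at an unadjusted p under 0.05 edgeR had 1 higher and 1 lower. Of all genes tested 5.2% were called higher and 8.2% lower. The medians of both groups, −0.32 and −0.30, were below that of all genes, −0.10.

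**Figure D4:**
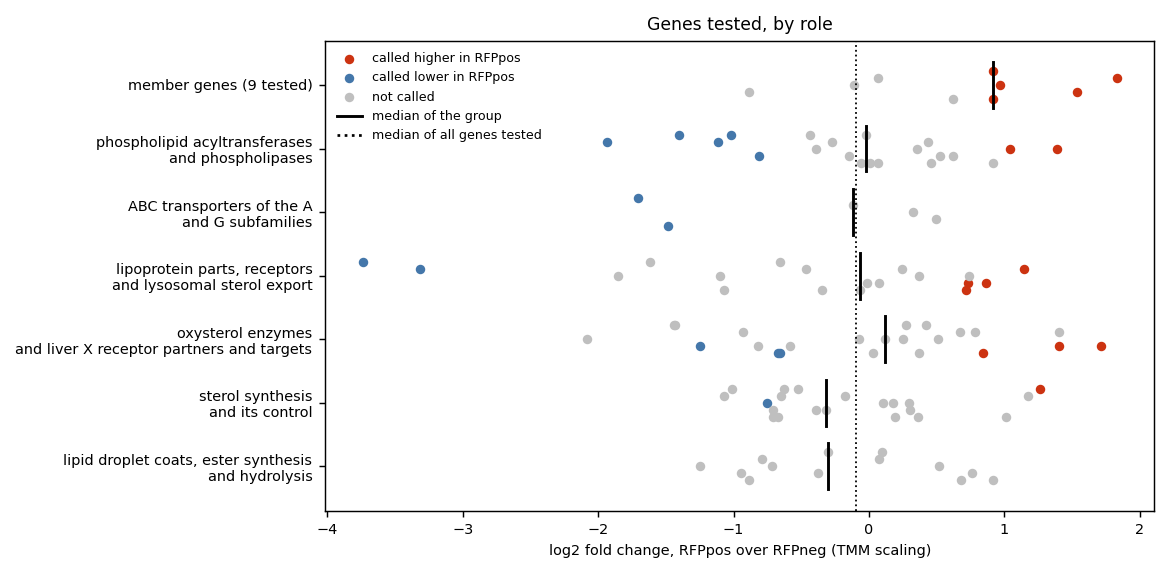
Log2 fold change of RFPpos over RFPneg (TMM scaling, 5 mice) for the 9 members tested and the 102 tested genes of the wider lists, 1 point a gene, spread vertically for legibility. Red and blue points were called higher and lower (adjusted p under 0.05), short bars are group medians and the dotted line is the median of all genes tested, −0.10. The members' median of 0.91 stands to the right of those of the wider groups, which lie between −0.32 and 0.12, and on the microglia scale the members' median was −0.31 and that of all genes −1.30.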

How the data were processed

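The authors sorted viable brain cells by RFP from 5 mice, made QuantSeq 3′ FWD libraries and ran the Lexogen QuantSeq FWD UMI pipeline. They deposited counts per Ensembl gene, with no normalization by the authors, with 1 column for each of the 10 samples. The submitters' processing notes list mm10. The aligner, the annotation and the use of strand are not given in the sources used here. The 2 single-cell samples were not analysed here.

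Symbols were found for 47224 of 47643 identifiers, with coordinates from GENCODE M21 on GRCm38. Reads on no gene (34.9% ± 2.24 of a sample in RFPneg, 41.5% ± 4.27 in RFPpos, SD, n = 5) and ambiguous reads (0.295 to 0.436%) stayed out of the library sizes. Genes with at least 15 counts in all were fitted with edgeR 4.0.16 in R 4.3.3 (TMM scaling, glmQLFit and glmQLFTest, mouse as a block), with Benjamini-Hochberg adjustment over all 11103 genes and a threshold of 0.05. Fold changes are RFPpos over RFPneg, and 95% intervals come from the same fit. The script was checked on simulated counts, with a spread that was set and not taken from these data. It called 0 of 10903 unchanged genes there. Of genes changed 1.5-fold, 2-fold and 4-fold it called 1 of 67, 6 of 67 and 40 of 66, so most smaller changes were missed.

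The pairing comes from the design, since both samples of a mouse came from the same animal. Deviations from the group means correlated within mice by 0.113, −0.00183, 0.0548, 0.00406 and 0.0144. Only in mouse 1 did the RFPneg sample correlate best with the RFPpos sample of its own mouse, so these values do not show the pairing. Without the replicate block 581 genes were called higher and 917 lower (577 and 911 with it).

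Alternatives were median-of-ratios scaling, library size alone, scaling to the microglia list, filterByExpr with a minimum count of 10, no filter, edgeR's likelihood ratio test, DESeq2 1.42.0, limma 3.58.1 with voom weights, no replicate block, a fold change threshold of 1 on the log2 scale, unadjusted p with that threshold, and each mouse left out. Library sizes with the reads on no gene and the test among mice were added after the data were seen. Shares of marker lists were compared by exact permutation within mice, and a count of 0 was taken to allow 3 counts. Intervals and floors cover counting error or the spread among these mice only. Log2 CPM for likeness used a prior count of 2.

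The members and gene lists were chosen with earlier results of these data known. Named genes were the 10 members, up to 3 genes called higher and 3 called lower with the smallest p in each role group, the 3 genes most like each member with at least 40 CPM, and the most abundant gene of each marker list. *Apoe*, *Laptm5*, *Fcrls*, *Ctsz*, *Ubash3b*, *Emcn* (at 0 in RFPpos), *Emg1* (overlapping *Lpcat3*) and the genes named in the test among mice were named after their values were seen.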

Additional observations from a re-analysis of the deposited data

Results flagged for a closer look

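Of 85 groups of 5 values examined (members, named genes of the wider lists and marker list shares, in RFPneg or RFPpos), 8 had 1 sample whose gap to its nearest neighbour exceeded 0.71 of the whole range, where chance gives about 4. In RFPneg, mouse 1 stood above the other mice in 3 members. *Lpcat1* was at 147 CPM there and between 61.2 and 84.5 CPM in the others (gap 0.727 of the range), *Lpcat2* at 259 CPM against 193 to 209 CPM (0.758), and *Abca9* at 231 CPM against 66.3 to 107 CPM (0.755). The same sample had the highest RFPneg share of microglia genes, 2.34%, oligodendrocyte genes, 0.309%, and choroid plexus and ependyma genes, 0.508%. Shares of oligodendrocyte progenitor and lymphocyte genes were also highest there. It had the lowest share of endothelial genes, 0.155%, and of fibroblast genes, 0.00902%, and the fewest counts, 177287. The part of these in the 3 members' values was not tested. Without mouse 1 the log2 fold changes of these 3 genes remained called.

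*Pla2g15* was low in the RFPneg sample of mouse 4, at 56.3 CPM with the others between 89.0 and 102 CPM (0.722). The 2 counts of *Nr1h3* in RFPpos (gap of 1) and the 4 counts of *Vldlr* in RFPpos (gap of 1) each fell in a single mouse, mouse 5 and mouse 2. The share of CNS-associated macrophage genes was 0.0311% in the RFPpos sample of mouse 2 and between 0.0144 and 0.0185% in the others (0.751). The share of choroid plexus and ependyma genes was 0.160% in the RFPpos sample of mouse 4 and between 0.0166 and 0.0430% in the others (0.815).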

How the results depend on the processing

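Of 131 log2 fold changes of members under the alternatives, 109 kept their direction and side of the threshold, and *Lpcat1* was called higher in 15 of 15. Scaled to the microglia list, 13 genes were higher and 5801 lower, 1 member was higher and 2 lower, and 0 wider list genes were higher and 63 lower. That scale moved the median of all genes by −1.20, so that smaller positive values came out below 0. These included *Lpcat2* (−0.31), *Lpcat3* (−0.60), *Abca1* (−0.30), *Abcg1* (−0.29), *Soat1* (−1.16), *Acsl4* (−0.15), *Lrp1* (−0.081), *Npc2* (−0.36), *Scarb2* (−0.49), *Mylip* (−0.36) and *Apoe* (−1.16). Of those listed, only *Soat1* and *Apoe* were called lower on it. Library sizes with the reads on no gene, added after the data were seen, moved the median of all genes by −0.25 and gave 305 genes higher and 1217 lower, 3 members higher (*Abca1* at adjusted p = 0.0543 and *Abcg1* at 0.115 were not called, within ranges of 0.00171 to 0.287 and 0.00983 to 0.450 over the alternatives) and 3 wider list genes higher, and turned the CNS-associated macrophage share to a difference of −0.00117 percentage points. With library size alone 5 wider list genes were higher. With filterByExpr, which tested 4210 genes and 7 members, 489 genes were lower and 6 wider list genes higher. DESeq2 called 279 genes higher and 586 lower, and 4 wider list genes higher and 8 lower, and did not call *Abcg1* (adjusted p = 0.160, within 0.00983 to 0.450), *Acsl3*, *Acsl4*, *Scarb2*, *Mylip*, *Rxra*, *Elovl5*, *Scd2*, *Ebp* or *Msmo1*. With a log2 fold change above 1 as well, 376 genes, 2 members and 6 wider list genes were higher, and 2 members with unadjusted p and that threshold. *Soat1* lay on either side of 0, at −0.015 with median of ratios, −0.033 with library size alone, −0.045 with filterByExpr, −0.0085 with DESeq2 and −0.19 with the reads on no gene. Leaving out 1 mouse gave 375 (without mouse 2) to 533 genes higher, 4 to 7 wider list genes higher (5, 4 and 6 without mice 2, 4 and 5), log2 fold changes of −0.13 to 0.23 for *Soat1* and −0.46 to 0.073 for *Plin2*, and share differences of −0.00296 to 0.00135 percentage points for CNS-associated macrophage genes and −0.101 to 0.0105 for astrocyte genes. Without the replicate block *Abcg1* (0.90) was not called, and neither were *Acsl3*, *Elovl5*, *Scd2*, *Ebp* and *Msmo1*. Among mice, *Abcg1* kept an adjusted p under 0.05 in 5 of 6 settings. The causes were not tested. Depth limited *Plin2*, *Nr1h2* and *Nr1h3*, which had 88, 19 and 9 counts in all.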
